A study of Mus musculus with 4 samples.

Results

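The genes described here are 10 genes of interleukin-6 (IL-6) family signalling: the receptor subunits Il6st, Il6ra, Osmr and Lifr, the ligand Lif, the kinase Jak2, the transcription factor Stat3, the inhibitor Socs3, and the transcription factors Cebpb and Cebpd. They were chosen by name with earlier results of these arrays in view, and all 10 were found, with 27 probe sets annotated to these genes alone out of 34945 probe sets with a single gene symbol (18193 genes in all). Total RNA from glomeruli, the filtering units of the kidney, of male mice was measured on an Affymetrix 3' expression array, with 1 array for each of 4 groups. The WT control group was wild type, and in the KO control group GC-A was knocked out systemically. GC-A is guanylyl cyclase A, encoded by Npr1, through which the heart's natriuretic peptides act. Both groups were given 2% ethanol by continuous subcutaneous delivery and a normal diet. WT ALDO and KO ALDO were the groups of the same genotypes given aldosterone by the same route with a 6% salt diet for 3 weeks. All 4 groups had had a kidney removed. The strain and age of the mice, the number of mice behind each array and the way the knockout was made were not given in the sources used here.

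Cytokines of the IL-6 family bind receptor complexes that share the signalling chain gp130, encoded by Il6st. Ligand binding activates Janus kinases such as JAK2, which phosphorylate STAT3, and STAT3 then enters the nucleus and switches on target genes. Socs3 is a classical STAT3 target whose protein binds gp130 and the kinases and shuts the signal off, so its transcript is often read as a trace of recent pathway activity. Cebpb and Cebpd encode C/EBP transcription factors that act with STAT3 on acute-phase genes.

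Since a group was a single array, no difference could be tested against replicate spread. Each value is an intensity, and each difference is between log2(intensity + 16) on single arrays, where 1 unit is 2-fold and the added 16 understates differences of dim probe sets. The brightest probe set of a gene, by its mean over the 4 arrays, stands for the gene. Genes were counted only among the brighter 50% of genes by that mean (9097 genes whose mean log2 value was at least 8.04, or about 247 as an intensity), which held 9 of the 10 genes and left out Lif. No detection calls were available, so weaker probe sets are described as dim, and intensities of different probe sets were not compared with each other.

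Every array had the same trimmed mean intensity of 500.003. Differences of 18 spike-in probe sets had medians between -0.27, for WT ALDO against WT control, and 0.08, for KO ALDO against WT ALDO, and a median of 0.13 for the difference of the ALDO effects. The ratio of 3' to 5' signal, a sign of RNA quality, differed with genotype: for beta-actin it was 1.86 and 1.87 on the WT arrays and 1.67 and 1.61 on the KO arrays, and for Gapdh 0.785 and 0.778 (WT) and 0.741 and 0.744 (KO). Its part in the genotype differences was not tested. The single probe set of the targeted gene Npr1 was dim on every array. It had 92.6 (WT) and 108 (KO) under control treatment and 60.5 (WT) and 23.4 (KO) under ALDO. It was thus lower in KO under ALDO only. Where it lies relative to the deleted part is not given, so it does not check the genotype labels. Podocyte, endothelial and mesangial markers of the glomerulus were bright, with none of the 24 measured markers below the brighter 50%, but all 18 measured markers of proximal and distal tubules were bright too, so transcripts of tubules were in the RNA as well.

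Socs3 had the widest range of the 10 genes and was higher in KO under both treatments. Its intensity was 215 (WT) and 558 (KO) under control treatment and 180 (WT) and 1221 (KO) under ALDO. Both KO arrays lay above both WT arrays, and KO ALDO was the highest. The difference between KO and WT was 1.31 under control treatment (2.49-fold) and 2.66 under ALDO (6.32-fold), the latter the 5th highest of the 9097 genes.

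Aldosterone and salt went with opposite differences of Socs3 in the 2 genotypes on this probe set. ALDO against control was -0.24 in WT and 1.11 in KO, which makes the difference of the ALDO effects 1.35. The WT value is no larger than the shift of the spike-in probe sets between the same arrays (median -0.27), and it was 0.07 with the mean of all Socs3 probe sets. The other probe sets agreed on the genotype difference and not on the treatment difference. The second probe set had intensities of 156 and 495 (WT and KO, control treatment) and 224 and 584 (WT and KO, ALDO), with genotype differences of 1.58 and 1.32, ALDO effects of 0.48 in WT and 0.23 in KO, and a difference of effects of -0.25. By the array maker's naming, the suffix x of both these probe sets marks probes that can also match other transcripts. The remaining Socs3 probe set, with no such suffix, was dimmer, with 97.5, 169, 93.6 and 379 in the same order of arrays. Its genotype differences were 0.71 under control treatment and 1.85 under ALDO, its ALDO effects -0.05 in WT and 1.09 in KO, and its difference of effects 1.14. All 3 probe sets therefore placed both KO arrays above both WT arrays, whereas the larger gap under ALDO was seen on 2 of the 3.

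**Figure D1:**
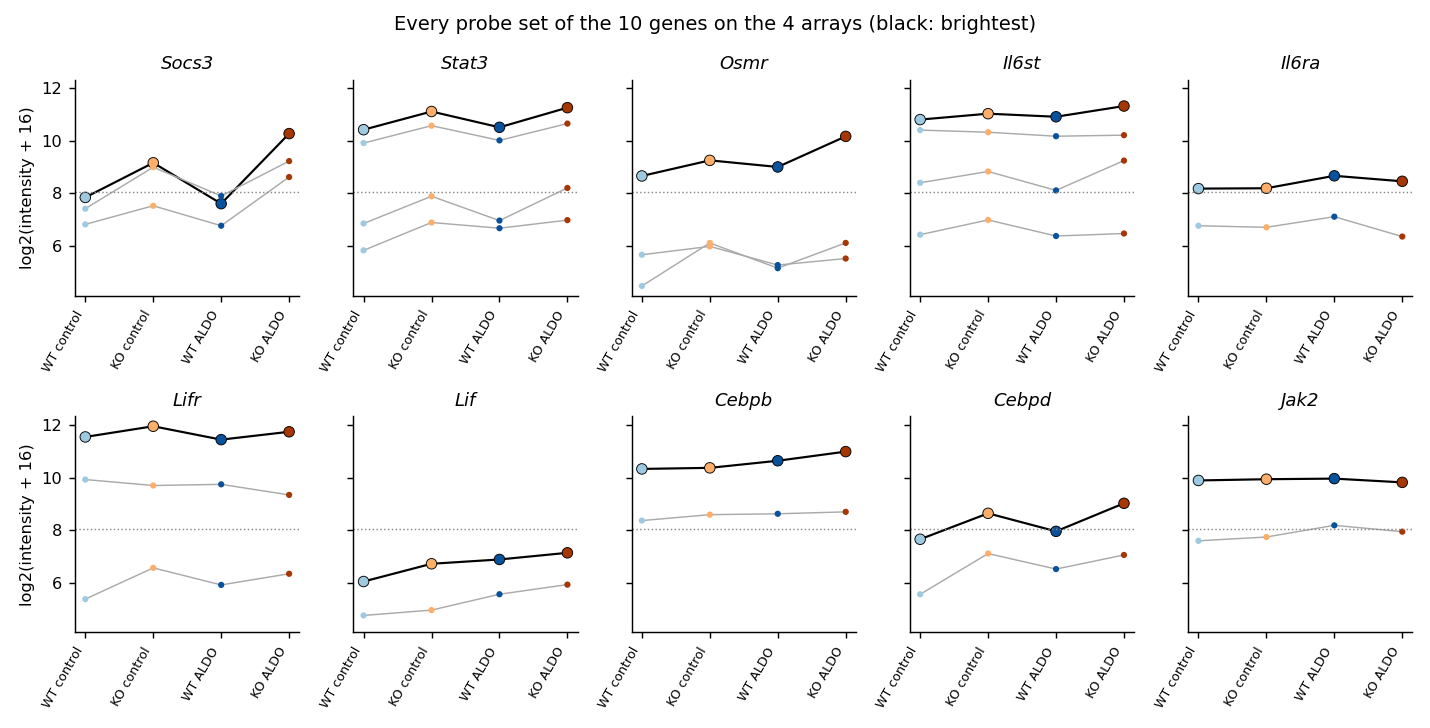
log2(intensity + 16) of each of the 27 probe sets on the 4 arrays, 1 panel per gene; colours mark the arrays, black lines and large points the brightest probe set, grey lines the other probe sets, and the dotted line the low end of the brighter 50% (8.04). Lines only join the values of a probe set. On their brightest probe sets Socs3, Stat3, Osmr, Il6st, Lifr and Cebpd have both KO arrays above both WT arrays, while Il6ra, Lif, Cebpb and Jak2 do not.

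The proximal promoter of Socs3 is shown because STAT dimers are known to bind the palindrome TTCNNNGAA, and those of Stat3, Osmr and Cebpb because these are the other counted genes in the promoter table that were above 0 for genotype on every probe set (Cebpb only barely, as described below). The sequences, from RefSeq on GRCm38.p6, are the 250 bases before the annotated start, with every match to the looser core TTNNNNNAA in capitals (both motifs read the same on either strand, and each TTCNNNGAA is also a TTNNNNNAA). They lie at chr11:117969367-117969616 (minus strand) for Socs3, chr11:100939541-100939790 (minus strand) for Stat3, chr15:6874314-6874563 (minus strand) for Osmr and chr2:167688665-167688914 (plus strand) for Cebpb.
Socs3: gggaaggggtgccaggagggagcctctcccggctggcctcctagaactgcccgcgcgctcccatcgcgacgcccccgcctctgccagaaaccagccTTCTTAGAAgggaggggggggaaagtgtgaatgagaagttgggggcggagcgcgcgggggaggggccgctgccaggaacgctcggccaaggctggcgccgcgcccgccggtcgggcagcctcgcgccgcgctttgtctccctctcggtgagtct
Stat3: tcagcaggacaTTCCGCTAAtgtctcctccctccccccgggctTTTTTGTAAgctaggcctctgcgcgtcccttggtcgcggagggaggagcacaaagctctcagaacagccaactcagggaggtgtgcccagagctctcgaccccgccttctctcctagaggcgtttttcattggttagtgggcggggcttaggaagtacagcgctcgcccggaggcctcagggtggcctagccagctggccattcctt
Osmr: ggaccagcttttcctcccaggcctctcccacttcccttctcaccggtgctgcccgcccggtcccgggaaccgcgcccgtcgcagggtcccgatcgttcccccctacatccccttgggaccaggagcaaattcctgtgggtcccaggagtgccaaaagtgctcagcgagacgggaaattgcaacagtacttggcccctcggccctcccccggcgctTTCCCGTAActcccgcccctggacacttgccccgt
Cebpb: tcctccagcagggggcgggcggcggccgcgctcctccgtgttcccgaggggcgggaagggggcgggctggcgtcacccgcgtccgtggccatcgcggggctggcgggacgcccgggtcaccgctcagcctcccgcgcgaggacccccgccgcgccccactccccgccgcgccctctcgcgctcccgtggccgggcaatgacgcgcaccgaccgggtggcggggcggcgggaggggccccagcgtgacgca

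The capitals in Socs3, TTCTTAGAA, begin 154 bases before the start and are the only match to TTCNNNGAA in the windows of the 9 genes found in the table (Cebpd was not in it). The full palindrome occurred in 7.02% of 32807 windows of the same length over all genes. Stat3 has matches to the looser core at 239 and 207 bases before the start and Osmr has 1 at 35 bases, while Cebpb has none. The looser core was found in windows of 8 of the 9 genes and in 55.2% of all windows, so it does not set these genes apart. A match describes letters only.

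Stat3, the transcription factor of the pathway, was higher in KO by nearly the same amount under both treatments. Its intensity was 1355 (WT) and 2198 (KO) under control treatment and 1445 (WT) and 2434 (KO) under ALDO. The arrays of a genotype lay close together, and those of KO lay above those of WT. The genotype difference was 0.69 under control treatment and 0.75 under ALDO, and the ALDO effects were 0.09 in WT and 0.15 in KO. The second probe set, with intensities of 949, 1509, 1019 and 1595 in the same order of arrays, gave 0.66 and 0.64. The other 2 probe sets of Stat3, both dim, also were higher in KO, by 1.03 and 1.06 under control treatment and by 1.24 and 0.31 under ALDO.

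Jak2, the kinase, differed little. Its intensity was 931 (WT) and 963 (KO) under control treatment and 978 (WT) and 885 (KO) under ALDO, with genotype differences of 0.05 and -0.14. A dimmer probe set gave 0.14 and -0.24, and the highest of its 4 values was that of WT ALDO (275, against 177 in WT control). The KO and WT arrays were not separated on either probe set.

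Of the receptor subunits, Osmr differed most. Osmr encodes the chain that pairs with gp130 to receive oncostatin M. Its intensity was 390 (WT) and 596 (KO) under control treatment and 498 (WT) and 1134 (KO) under ALDO. KO ALDO stood highest, and the difference between KO and WT was 0.59 under control treatment and 1.16 under ALDO. The ALDO effect was 0.34 in WT and 0.91 in KO, a difference of effects of 0.57. The other Osmr probe sets were dim (6.43 to 53.6) and also above 0 for genotype, with 0.32 and 1.63 under control treatment and 0.25 and 0.96 under ALDO. They did not repeat the larger ALDO effect in KO, where they had -0.46 and 0.00.

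Il6st, the shared gp130 chain, depended on the probe set. The brightest gave 1774 (WT) and 2075 (KO) under control treatment and 1912 (WT) and 2541 (KO) under ALDO, with genotype differences of 0.22 and 0.41. The second gave 1341, 1267, 1139 and 1172, with differences of -0.08 and 0.04, so that the 2 genotypes were level. A further one, whose suffix s marks probes shared by more than a single transcript, gave 323, 441, 262 and 592, and its differences were 0.43 and 1.13. The remaining, dim probe set gave 0.56 and 0.09.

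Lifr, the receptor for leukaemia inhibitory factor, also had bright probe sets that disagreed. The brightest gave 2962 (WT) and 3930 (KO) under control treatment and 2758 (WT) and 3396 (KO) under ALDO, higher in KO by 0.41 and 0.30. The second gave 955, 813, 839 and 632, lower in KO by -0.23 and -0.40. On both of these, ALDO arrays were below the control arrays of their genotype, by -0.10 in WT and -0.21 in KO on the brightest and by -0.18 and -0.36 on the second. The remaining Lifr probe set was dim, with genotype differences of 1.19 and 0.42.

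On its brightest probe set Il6ra, the chain that binds IL-6 itself, followed treatment more than genotype. Its intensity was 275 (WT) and 278 (KO) under control treatment and 391 (WT) and 337 (KO) under ALDO. Both ALDO arrays lay above both control arrays, by 0.49 in WT and 0.26 in KO, and the genotype differences were 0.01 and -0.21. The second probe set was dim (66.3 to 123) and had ALDO differences of 0.34 in WT and -0.35 in KO, so the treatment difference in KO was not seen on it. Its genotype differences were -0.06 under control treatment and -0.75 under ALDO, the latter larger than either of its ALDO differences.

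Lif, the only ligand among the 10 genes, was dim on both probe sets. The brighter gave 50.2 (WT) and 89.7 (KO) under control treatment and 102 (WT) and 125 (KO) under ALDO, and the other 11.1, 15.2, 31.4 and 45.1. WT control was lowest and KO ALDO highest on both. The ALDO effects were 0.84 in WT and 0.42 in KO on the first and 0.81 and 0.97 on the second, and the genotype differences 0.67 and 0.25, and 0.20 and 0.37.

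On their brightest probe sets, the genotype difference was the larger for Cebpd and the ALDO effect for Cebpb. Cebpd had 186 (WT) and 383 (KO) under control treatment and 232 (WT) and 503 (KO) under ALDO. Both KO arrays lay above both WT arrays, by 0.98 under control treatment, just under 2-fold, and by 1.06 under ALDO. A dim second probe set gave 31.3, 122, 76.0 and 117, with genotype differences of 1.55 and 0.54 and ALDO effects of 0.96 in WT and -0.05 in KO. Cebpb had 1268, 1304, 1575 and 2008, with both ALDO arrays above both control arrays, by 0.31 in WT and 0.62 in KO, and genotype differences of 0.04 and 0.35. Its second probe set (313, 369, 378 and 398) gave ALDO effects of 0.26 and 0.11 and genotype differences of 0.22 and 0.07, so the contrasts were of like size on it.

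**Figure D2:**
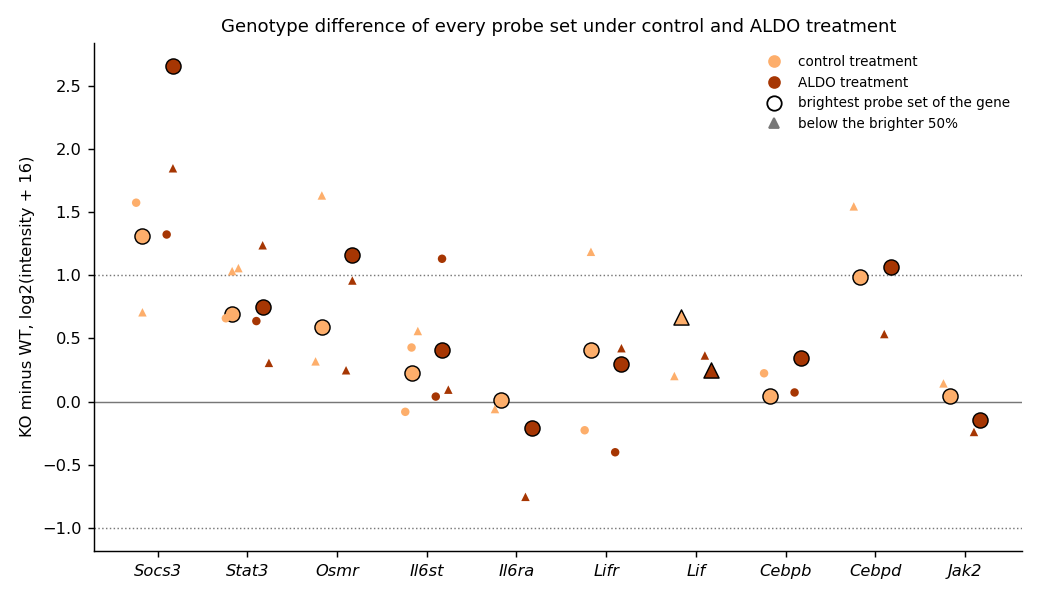
KO minus WT in log2(intensity + 16) for each of the 27 probe sets, under control treatment (light) and ALDO (dark); outlined symbols are the brightest probe set of a gene, triangles are probe sets below the brighter 50%, and dotted lines mark 2-fold. Socs3, Stat3, Osmr, Lif and Cebpd are above 0 on every probe set, and so is Cebpb, though centring each array on its median turns it below 0 under control treatment; Il6st, Lifr, Il6ra and Jak2 have probe sets below 0.

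Set side by side, the 10 genes were higher in KO more often than genes in general, by amounts that were mostly under 2-fold. Under control treatment all 10 brightest probe sets were above 0, but Il6ra, Cebpb and Jak2 by at most 0.05, and these 3 turned below 0 when each array was centred on its median, as Il6ra did with quantile normalization. Of the 9 counted genes, which leave out Lif, 9 were above 0 and Socs3 alone was 2-fold or more higher. Over the 9097 genes 49.7% were above 0 and 0.967% were higher by 2-fold or more. Under ALDO 8 of 10 were above 0. Of the 9 counted genes 7 were, and Socs3, Osmr and Cebpd were 2-fold or more higher, against 51.3% and 1.26% of the 9097 genes. Centring brought Osmr just under 2-fold and Cebpd to 0.90, and the mean of all probe sets brought them to 0.79 and 0.80, so that neither was then counted. As the genes were picked with these contrasts known, the counts are a description and support nothing. The median difference of the 9 counted genes was 0.41 under either treatment, against 0.00 and 0.01 for all genes. Above 0 under both treatments were 8 of the 10 brightest probe sets, against 34.8% of the 9097 genes. The 8 include Lif, which is not among the 9097 genes. Of the 27 probe sets, 24 were above 0 under control treatment, 22 under ALDO and 21 under both. These include 12 probe sets below the brighter 50%, and probe sets of the same gene are not separate genes, so the shares of all genes are not a like comparison for them.

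Aldosterone and salt came with smaller differences. In WT no counted gene was 2-fold or more higher or lower (0.33% of all genes were higher), with a median of 0.11 and a highest value of 0.49 for Il6ra. In KO Socs3 alone was 2-fold or more higher (0.572% of all genes), Osmr followed at 0.91 and Cebpb at 0.62, and the median was 0.29. For the difference of the ALDO effects, KO minus WT, Socs3 alone reached 2-fold (0.594% of all genes), with a median of 0.08. KO ALDO was the highest array for 7 of the 10 genes and WT control the lowest for 7. The exceptions at the top were Il6ra and Jak2, highest in WT ALDO, and Lifr, highest in KO control. The same count was not made over all genes. The median intensity of all probe sets was also lowest on WT control (89.5) and highest on KO ALDO (103), so nothing about the 10 genes is read from this order.

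**Figure D3:**
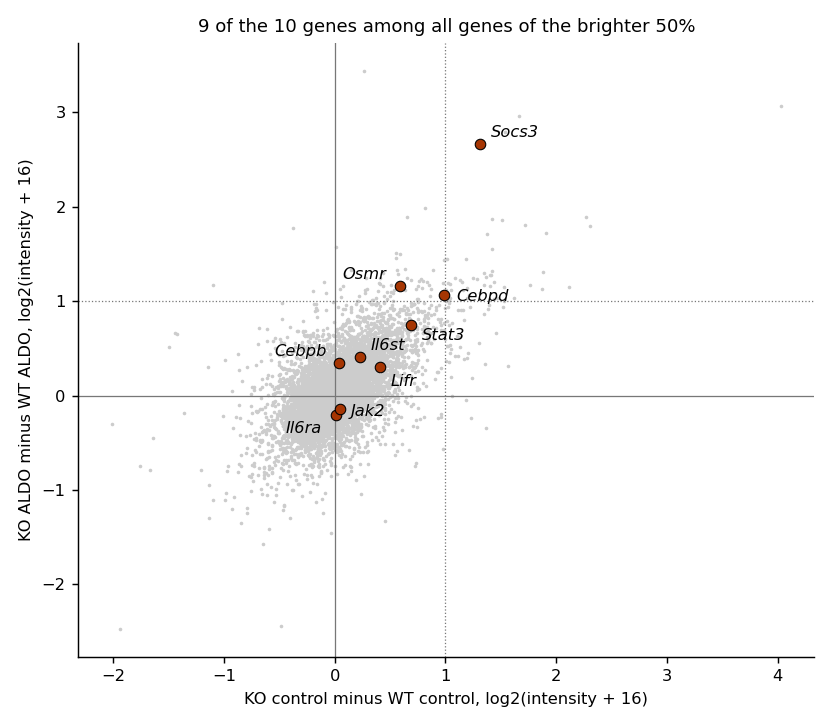
KO minus WT in log2(intensity + 16) under control treatment (horizontal) and under ALDO (vertical) for the 9097 genes of the brighter 50% (grey) and the 9 counted genes (labelled); dotted lines mark 2-fold. Socs3 lies far up at 1.31 and 2.66, Cebpd, Osmr and Stat3 lie at the upper right edge of the cloud, and Il6ra and Jak2 lie near its centre.

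Most other genes of the pathway differed less. None of the 5 counted of the other JAK and STAT genes (8 of 9 measured) reached 2-fold in any pair of arrays, and their medians for genotype were -0.06 and 0.13. Stat5b was highest under control treatment (0.31) and Jak1, the kinase most used by gp130, lowest (-0.21). Of 14 counted inhibitors 9 were above 0 under control treatment and 11 under ALDO, none by 2-fold, with medians of 0.07 and 0.05. Of all genes 49.7% and 51.3% were above 0, and only 0.967% and 1.26% were higher by 2-fold or more. Having none at 2-fold therefore does not set either list apart. Socs2, a feedback inhibitor best known from growth hormone signalling, was highest, with 477 (WT) and 741 (KO) under control treatment and 529 (WT) and 904 (KO) under ALDO, differences of 0.62 and 0.75. Cish, a related inhibitor induced by STAT5, was lowest under control treatment (-0.43), and Pias4 under ALDO (-0.55). Of the 3 other C/EBP genes counted, Cebpa was highest under control treatment (0.56) and Ddit3, induced in endoplasmic reticulum stress, under ALDO (0.69).

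Transcripts of the other ligands and receptors were dim. Of 7 measured ligands only Ctf1 was counted, with differences of 0.30 and -0.18, and of 6 measured receptors none was. In the array order used above, Il6 had 11.6, 0.903, 12.6 and 33.0, and Osm, the ligand of the Osmr complex, had 60.8, 78.8, 62.1 and 41.1. Il11 had 34.6, 17.9, 53.6 and 66.3. Clcf1, a ligand of the ciliary neurotrophic factor receptor, was the ligand with the largest genotype difference under ALDO (1.40), with 77.7, 163, 67.6 and 204. Il6, Osm, Il11 and Clcf1 were named after their values were seen, and values this low have no known detection limit here.

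Most of the counted genes known as STAT3 targets were above 0 for genotype. The list of 28 was drawn up with earlier results known, and several of its genes had been seen to differ. Of the 17 counted, 16 were above 0 under control treatment and 15 under ALDO, with 2 and 5 higher by 2-fold or more and medians of 0.46 and 0.62. Of all genes 49.7% and 51.3% were above 0 and 0.967% and 1.26% at 2-fold or more, and since genes of the list had been seen to differ, nothing is read from the counts. The fibrinogen chain Fgg had 676 (WT) and 1995 (KO) under control treatment and 721 (WT) and 5082 (KO) under ALDO. The other genes past 2-fold under ALDO were the lipocalin Lcn2 (3.07), the fibrinogen chain Fga (1.89), the copper carrier ceruloplasmin, Cp (1.13), and the adhesion molecule Icam1 (1.12), and under control treatment Lcn2 (4.03) and Fgg (1.54). In KO, ALDO against control was 1.37 for Fga and 1.34 for Fgg, and in WT Lcn2 alone reached 2-fold (1.34). Vegfa was the lowest under both treatments (-0.23 and -0.04).

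**Figure D4:**
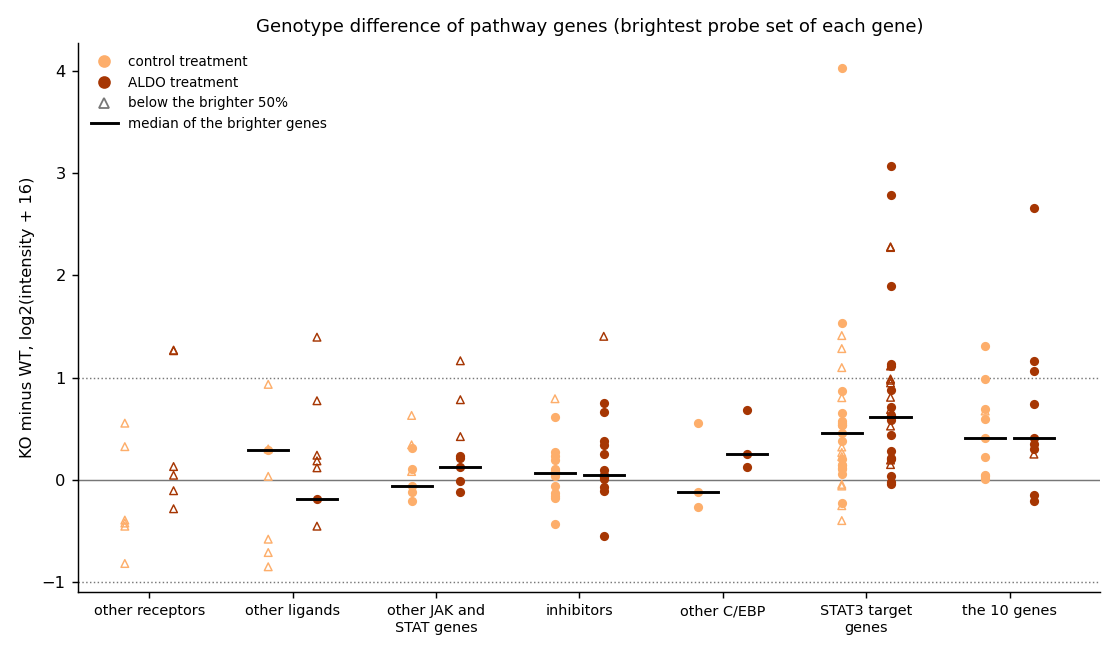
KO minus WT in log2(intensity + 16) for genes of 6 pathway lists and the 10 genes, under control treatment (light) and ALDO (dark); each symbol is the brightest probe set of a gene, open triangles are genes below the brighter 50%, black bars are medians of the counted genes and dotted lines mark 2-fold. Medians of the STAT3 target genes are 0.46 and 0.62, and those of the inhibitors 0.07 and 0.05.

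By the size and shape of their 4 values, the genes most like the brightest Socs3 probe set were Fgg, Pamr1, C1qa, Tnc and Cdkn1a, in this order. Likeness was the Euclidean distance between log2 values centred on each gene's mean over the 4 arrays, and it was 0.34 for Fgg and between 0.57 and 0.67 for the others. Pamr1 had 236 (WT) and 658 (KO) under control treatment and 257 (WT) and 984 (KO) under ALDO. Tnc, the matrix glycoprotein tenascin C, had 193, 350, 155 and 665, and Cdkn1a, the cell cycle inhibitor p21, had 203, 554, 258 and 885. Among the 10 genes Cebpd (1.16) and Osmr (1.19) were nearest to Socs3, in places 43 and 55 of 8915 genes. With 4 arrays many genes share a profile, so the order is a description. It holds for the brightest Socs3 probe set, which has the suffix x. The second Socs3 probe set had another ALDO pattern (difference of effects -0.25, against 1.35), and its likeness to other genes was not computed.

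Markers of other cells moved with the same contrasts, and their part in the differences of the 10 genes was not tested. Fewer cells of a type and less RNA per cell cannot be told apart in such bulk RNA. Of 14 macrophage markers, all were higher in KO under control treatment and 13 under ALDO, and their summed intensity was 6026 (WT) and 11823 (KO) under control treatment and 6245 (WT) and 13497 (KO) under ALDO. C1qa, among the genes most like the brightest Socs3 probe set, is a member of this list. Of 6 fibroblast markers 5 and 6 were higher in KO, with sums of 4288, 6383, 5390 and 10456. All 10 endothelial markers were higher under both treatments, with sums of 18796, 24559, 22677 and 31755, and all 6 measured mesangial markers were too (7680, 9649, 8871 and 12081). Podocyte markers had sums of 27014, 26387, 28715 and 31322, with 2 of 8 higher in KO under control treatment and 8 of 8 under ALDO. Sums of proximal tubule markers were 211742, 196931, 197468 and 179281, with 1 and 2 of 10 higher in KO, and sums of distal tubule and duct markers were 75269, 80385, 79937 and 86555. The 6 measured neutrophil markers had sums of 880, 1087, 122 and 1171, and WT ALDO was the low array, mostly through S100a8 and S100a9. The 9 measured lymphocyte markers, 8 of them below the brighter 50%, had sums of 642, 1166, 711 and 1104, with 6 and 5 higher in KO. Most of that sum was Ptprc, a gene of all leukocytes (346, 796, 431 and 765). The B cell genes of the list, all dim, went both ways. Cd79a (-0.42 and -1.06) and Cd79b (-0.33 and -0.90) were lower in KO under control treatment and ALDO, and Ms4a1 was higher (0.28 and 0.41). No marker was listed at 0.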

How the data were processed

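The authors deposited linear intensities, with a column for each array, made with Affymetrix Expression Console per the submitters' processing notes. The algorithm, its version, background correction and detection calls were not given in the sources used here. As the trimmed means (highest and lowest 2% left out) were equal, each array had been scaled, so a shift of all transcripts together could not be seen. Names came from the annotation table of the array. Of 45101 probe sets, 932 had several symbols and 9211 had no symbol listed, and none of these was used as a gene. Affymetrix control probe sets were not used as genes either, but gave the spike-in values and the ratios of 3' to 5' signal. All 10 symbols matched a RefSeq gene table by Entrez identifier.

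The genes, lists and alternatives were chosen with earlier results of these data known. Values were computed with Python 3.11.15, numpy 2.4.6 and pandas 2.3.3. The differences and the counting at 2-fold were tested on simulated gene values, and the other steps were not. No p-value, standard error or interval was computed, and the number of arrays limits the precision. Named genes were the 10 genes, pathway genes among the brighter 50% that reached 2-fold in a pair of arrays, otherwise at most the 2 highest and 2 lowest of a list, and the 5 genes nearest to Socs3, without clone names. Outside this rule, 4 dim ligands, the dim JAK, STAT and inhibitor genes and single cell type markers were named after their values were seen. Alternatives were pseudocounts of 1 and 64, quantile normalization, centring on the median, the mean of all probe sets, no filter on dim genes and the brightest 25%. Added after seeing the data were the second-brightest probe set and the brightest one without an x or s suffix.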

Additional observations from a re-analysis of the deposited data

Results flagged for a closer look

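Socs3 is listed because its difference between ALDO and control went opposite ways in the 2 genotypes on its brightest probe set, -0.24 in WT and 1.11 in KO. With 1 array per group the difference between these effects was not tested. The second probe set had 0.48 and 0.23, both above 0, and the third -0.05 and 1.09. The mean of all 3 gave 0.07 and 0.81. Spike-in probe sets had a median of -0.27 between WT ALDO and WT control, as large as the Socs3 value there, and of -0.11 between KO ALDO and KO control.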

How the results depend on the processing

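No paired analysis was possible because each group has 1 array, and for the same reason no array was left out. The 6 differences of the 10 genes past 2-fold gave 42 recomputed values (7 alternatives each), of which 41 kept their sign and 29 stayed past 2-fold. The exception in sign was the difference of the ALDO effects of Socs3, 1.35 as reported and -0.25 on the second-brightest probe set. Socs3 stayed past 2-fold between KO ALDO and WT ALDO under all 7, from 1.32 to 2.76, and Osmr under 4 (0.25 to 1.19) and Cebpd under 2 (0.54 to 1.11). For Osmr and Cebpd, the alternative without x and s probe sets kept the probe set already used. It returned the same 1.16 and 1.06 and could not move, yet it is counted in the 4, the 2, the 42, the 41 and the 29.

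Counts of the 10 genes at 2-fold or more were small, so 1 gene moves them. KO control against WT control had 1, which became 2 with a pseudocount of 1 or the mean of all probe sets (Cebpd added), and 0 among the brightest 25% of genes or without x and s probe sets. KO ALDO against WT ALDO had 3, which became 2 with a pseudocount of 64 or quantile normalization (Cebpd lost) or without x and s probe sets (Socs3 lost), 1 with centring on the median, the mean of all probe sets or the second-brightest probe set, and 0 among the brightest 25%. KO ALDO against KO control and the difference of the ALDO effects each had 1, which became 0 with the mean of all probe sets, the brightest 25%, the second-brightest probe set or no x and s probe sets. WT ALDO against WT control stayed at 0. Fewer than 9 genes are counted in 4 of these settings: the brightest 25% held 4 of the 10 genes, without Socs3, second-brightest probe sets 5, the mean of all probe sets 8, and probe sets without x and s 8, with Socs3 below the brighter 50%. The cause of the other moves was not tested. Centring moved the median of all counted genes between KO ALDO and WT ALDO from 0.01 to -0.15, and it shifts all genes of a comparison alike. The number of arrays and dim signal limit every value.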
